A study of Mus musculus with 8 samples.

Results

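Trafficked maternal cells were compared between pups that had received maternal donor cells by intrauterine transplantation (mIUT) and uninjected pups, in 2 pooled libraries of the 8 in the series, 1 library a side. All pups came from matings of BALB/c males (H2K-d) with CD11c-DTR dams (CD45.2, H2K-b) and are F1 hybrids. The dams have the B6 background and carry the Itgax-DTR/EGFP transgene, so that the toxin receptor is driven by the promoter of the CD11c gene. In the mIUT group the dams received saline on embryonic day 13, which leaves their dendritic cells in place, and each fetus received 5000000 B6 bone marrow mononuclear cells (CD45.1, H2K-b) into the liver on embryonic day 14. The uninjected group consisted of pups whose dams had been given diphtheria toxin or saline and that had received no donor cells, and the split between these dams is not given in the sources used here. All pups were aged 1 week, cells came from whole-body harvests, and cells of several pups, more of them in the uninjected group, were pooled in each library. The sort for maternal cells used H2K-b, an MHC class I antigen of the dam that the donor B6 cells also carry and that F1 pups inherit. No CD45.1 gate is named for the RNA sort, so that RNA of dam and donor cells cannot be told apart in the mIUT library, and RNA of the pups' own cells only in part, through genes that H2-b mice do not transcribe. Genes entered the comparison with 10 or more counts in both libraries, or with 100 or more in 1 of them.

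Maternal microchimerism is the presence of cells of the mother in her offspring. These cells cross the placenta and also enter the pup with milk, and in mice they include lymphocytes, myeloid cells and progenitors. Transplantation into the fetus brings in bone marrow cells, and marrow is the site where neutrophils mature. Neutrophils pass through a promyelocyte stage, in which primary granule proteases are made, and then through myelocyte and later stages, in which lactoferrin, cathelicidin and gelatinase granules and the S100 proteins are made. Mature B cells carry surface IgM and IgD and present antigen on MHC class II, and T cells recognize antigen through the TCR and the CD3 complex.

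The mIUT library held 44558283 counts on genes and the uninjected library 38558603, and 10016 and 13068 genes respectively had at least 10 counts. Ptprc, the common leukocyte antigen CD45, had 6297 counts in mIUT and 8924 in uninjected pups. H2-K1, the gene of the sorting antigen, had 20967 and 130802 counts, 6.21-fold lower in mIUT on the CPM scale (counts divided by TMM-normalized library size), with a counting interval of 6.12 to 6.30. H2-Ea, which mice of the H2-b haplotype such as B6 do not transcribe, had 311 counts in mIUT and 0 in uninjected pups. In recipient cells of mIUT its level was 11.8 on the CPM scale, which cannot be set directly against these counts. The Y-linked genes Eif2s3y and Uty had 2988 and 1584 counts in mIUT and 0 and 0 in uninjected pups, whereas Ddx3y and Kdm5d were at 0 in both. Xist had 484 and 2036 counts. H2-Ea, Eif2s3y and Uty were thus above 0 in mIUT and at 0 in uninjected pups. Dams have no Y chromosome, and dam and donor are both of the H2-b haplotype. The Y-linked genes summed to 118 CPM in maternal cells of mIUT and to 117 CPM in recipient cells of mIUT, against 29.3 and 30.0 CPM in maternal cells of the 2 paternal-cell groups. By haplotype, the H2-Ea RNA of the mIUT library was not from dam or donor cells. Maternal cells of mIUT is therefore used as the name of the sort. How much RNA of the pups' own or other cells entered the results was not tested. The sexes of donors and pups are not given in the sources used here.

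With 1 library a side there is no replicate check and no p value, and every ratio compares these 2 libraries. Intervals are exact at the 95% level on the pair of counts, and, like the limits given for a count of 0 (3 counts of the total), they cover counting error only, since the reads carry no molecular identifiers. A ratio against a library at 3 counts or fewer is given as a bound (at least N-fold), with those 3 counts, 0.0775 CPM in mIUT and 0.0771 CPM in uninjected pups, as the floor per library. Of 12200 genes compared, 2238 (18.3%) were higher and 3713 (30.4%) lower in mIUT by 4-fold or more. A gene with 100 or more counts in 1 library and under 10 in the other had to pass this threshold, and 904 genes (7.41%) were such in mIUT and 2616 (21.4%) in uninjected pups. Among the 8680 genes that reached 10 counts in each library, 1334 (15.4%) were higher and 1097 (12.6%) lower, with a median log2 ratio of 0.11. These last shares are the background for each gene group, and genes named beyond the rule given with the methods were chosen after their values were seen. All gene lists were chosen with earlier results of these data known, so their counts describe and do not test. In bulk RNA, fewer cells of a type and less RNA per cell cannot be told apart.

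**Figure D1:**
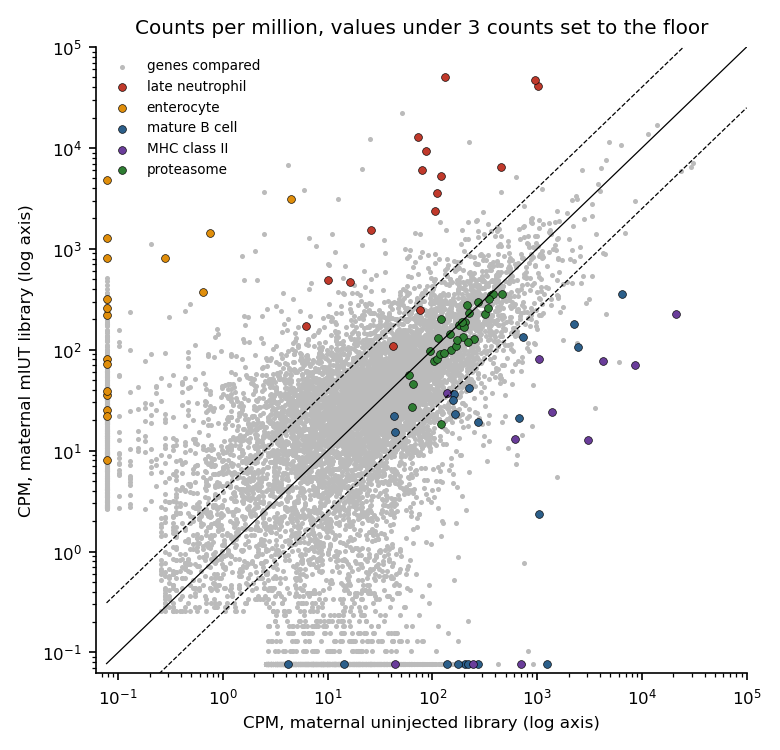
CPM of each gene compared in the maternal uninjected library (x axis, log scale) and the maternal mIUT library (y axis, log scale), with values under 3 counts drawn at the floor. The solid line marks equal levels and the dashed lines 4-fold differences, and most late neutrophil genes and all enterocyte genes shown lie above the upper line while most mature B-cell and MHC class II genes lie below the lower line and proteasome genes follow the diagonal.

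Genes of maturing neutrophils were higher in maternal cells of mIUT. Of 16 late neutrophil genes, all with 10 or more counts in both libraries, 14 were higher by 4-fold or more, against 15.4% of all such genes, and 0 lower, with a median log2 ratio of 5.38. Together they took 16.3% of all counts in mIUT (Wilson interval 16.25 to 16.27%) and 0.335% in uninjected pups (0.333 to 0.337%). Ngp, a neutrophil granule protein of the cathelicidin family on chromosome 9 (110248815 to 110252086 in GRCm39), had 1941433 counts in mIUT and 5142 in uninjected pups, a 379-fold difference (369 to 390.1). S100a9 and S100a8, the subunits of calprotectin, were 49.3-fold (48.8 to 49.9) and 40.2-fold (39.8 to 40.6) higher, from 37065 to 1819995 and from 39956 to 1597772 counts. Ltf, which encodes lactoferrin of the secondary granules, was 174-fold higher (168 to 181), with 491110 against 2835 counts. Camp, the cathelicidin precursor, had 362735 against 3348 counts and was 109-fold higher (105 to 113). The 2 members that stayed within 4-fold were Csf3r, the receptor for granulocyte colony-stimulating factor (9605 against 2953 counts), and Padi4, the peptidylarginine deiminase of neutrophils (4208 against 1636 counts), both of which are also made by other myeloid cells.

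The primary granule genes of promyelocytes were higher as well. Of 6 genes, 5 had 10 or more counts in both libraries and all 5 of them were higher, and the sixth, Mpo, had 42815 counts in mIUT and 8 in uninjected pups. Mpo encodes myeloperoxidase, and its ratio was 5379-fold with a wide counting interval (2729.5 to 12459) because of the low count in uninjected pups. Elane, neutrophil elastase, had 17758 against 267 counts (66.8-fold, 59.2 to 75.7), and Ctsg, cathepsin G, 8190 against 68 (121-fold, 95.4 to 156). Prtn3, proteinase 3, had 10467 against 913 counts (11.5-fold, 10.8 to 12.3). Both stages of neutrophil maturation were thus represented in the mIUT library above their level in uninjected pups.

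Other genes with large ratios are known in neutrophils or close to them. Olfm4, an olfactomedin of secondary granules that is also made in intestinal crypts, had 260505 counts in mIUT and 164 in uninjected pups (1596-fold, 1369.9 to 1872), and its level in recipient cells of mIUT was 16233 CPM. Crispld2, a secreted protein that binds lipopolysaccharide, had 8208 and 12 (687-fold, 393 to 1331). The stefin A cluster on chromosome 16, cysteine protease inhibitors of myeloid cells, was chosen as a list after its values were seen. All 9 of its genes were higher. Stfa3 had 140376 against 97 counts (1454-fold, 1192 to 1794), and Cstdc5 851246 against 2001 (428-fold, 409 to 447). The genes of this cluster are near-identical copies, so that the split of reads among them is uncertain, and their summed level of 52828 CPM in mIUT against 122 CPM in uninjected pups is less affected.

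Late neutrophil genes were also high in recipient cells of mIUT. The summed level of the late neutrophil list was 187159 CPM in maternal cells of mIUT and 314283 CPM in recipient cells of the same group, against 3322 and 13149.7 CPM in maternal and recipient cells of uninjected pups. For primary granule genes the 4 sums were 2196, 1721, 36.8 and 6404 CPM in the same order, so that this sum was highest in recipient cells of uninjected pups. Mpo made up 4385 CPM of it there. Ctsg (211.5 against 165.6 CPM) and Prss57 (83.2 against 18.4 CPM) were instead higher in maternal cells of mIUT than in those recipient cells, and the other members were lower. Whether neutrophils entered both sorts of mIUT pups alike was not tested.

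**Figure D2:**
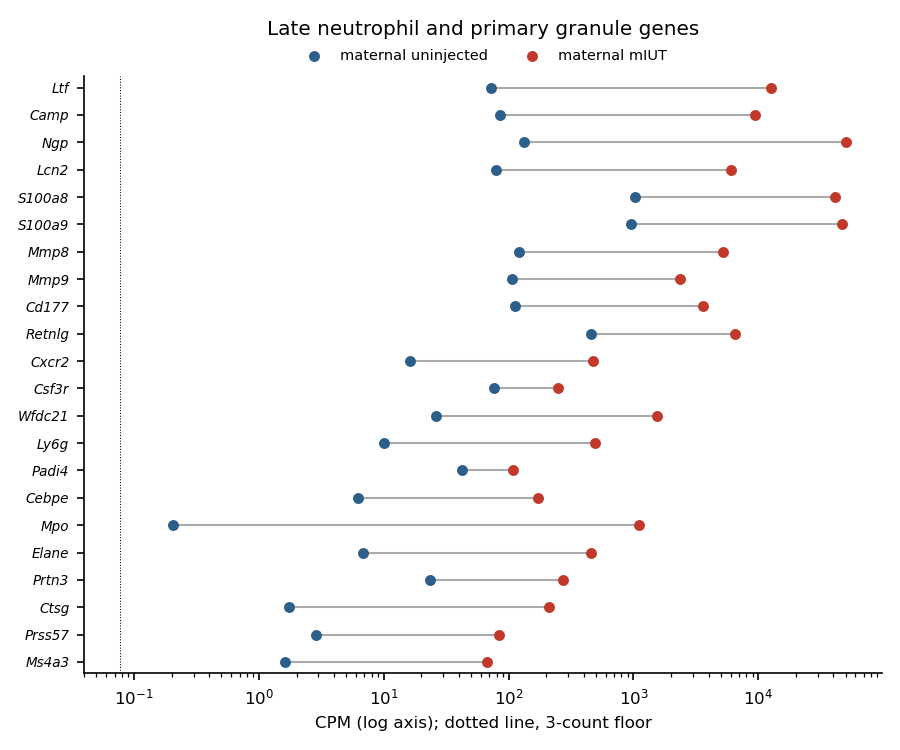
CPM (x axis, log scale) of each late neutrophil gene (Ltf to Cebpe) and primary granule gene (Mpo to Ms4a3) in the 2 maternal libraries, with the 3-count floor as a dotted line. The mIUT value lies to the right of the uninjected value for every gene, by least for Padi4 and by most for Mpo.

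Promoters of the late neutrophil genes are shown because these genes differed together, and C/EBP factors are known to drive granule genes at the myelocyte stage. Promoter sequences of 300 bases (250 before to 50 after the gene start) came from RefSeq on the GRCm38.p6 build, in which 13 of the 16 genes were matched. The C/EBP motif TTGCNNAA, searched on both strands, was in 7 of these 13 (53.8%), and in 10.8% of all 32851 promoters of the table. Of the matched primary granule promoters, 1 of 5 held it. For the lists 1 promoter per gene was taken, whereas the share over all promoters counts every promoter. A match describes letters in this window and no binding was measured. Whether C/EBP factors have a part in the difference between the libraries was not tested. The 2 late neutrophil genes with the highest CPM in mIUT that were matched are printed 5′ to 3′ on the gene's strand, with the matches in capitals.
Ngp, chr9:110419558-110419857, plus strand: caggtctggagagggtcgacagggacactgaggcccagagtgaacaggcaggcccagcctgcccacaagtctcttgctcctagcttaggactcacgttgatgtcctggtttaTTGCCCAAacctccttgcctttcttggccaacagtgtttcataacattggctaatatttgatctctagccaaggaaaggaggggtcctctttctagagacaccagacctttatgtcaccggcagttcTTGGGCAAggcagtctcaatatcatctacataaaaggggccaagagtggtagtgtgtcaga
S100a9, chr3:90695672-90695971, minus strand: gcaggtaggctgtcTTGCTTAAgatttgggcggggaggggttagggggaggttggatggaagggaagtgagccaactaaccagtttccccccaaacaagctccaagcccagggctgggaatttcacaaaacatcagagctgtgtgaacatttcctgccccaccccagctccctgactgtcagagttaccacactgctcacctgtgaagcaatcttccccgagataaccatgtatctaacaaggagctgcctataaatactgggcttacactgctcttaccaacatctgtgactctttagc

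Genes of small intestinal enterocytes were detected in the mIUT library and were almost absent from uninjected maternal cells. This list was written after its leading genes were seen, so its counts, like those of the other lists, describe and do not test. Of 20 genes, 13 had 100 or more counts in mIUT and under 10 in uninjected pups, 4 had 10 or more in both and were higher, and 3 (Lct, Cdx1 and Sis) were low in both libraries. Fabp2, the intestinal fatty acid binding protein on chromosome 3 (122688721 to 122693155 in GRCm39), had 185244 counts in mIUT and 0 in uninjected pups, at least 62057-fold higher. Apoa4, an apolipoprotein of chylomicrons, had 49721 against 0 counts (at least 16657-fold), and Alpi, intestinal alkaline phosphatase, 31088 against 0 (at least 10415-fold). Rbp2, the cellular retinol binding protein of the gut, had 54966 against 29 counts (1905-fold, 1326 to 2845). Lgals4, galectin-4, had 31700 against 11 (2896-fold, 1618 to 5802), and Fabp1 121328 against 174 (701-fold, 604 to 818). The rule for named genes, which takes the largest bounds, added Apoc3, an apolipoprotein of gut and liver (20002 against 0 counts), Pls1, a microvillus bundling protein (18497 against 0 counts), Ms4a10 (16857 against 0), Creb3l3, a transcription factor of lipid metabolism (15545 against 0), and Meltf, melanotransferrin (14261 against 0). The enterocyte genes summed to 13698 CPM in maternal cells of mIUT and to 107 CPM in recipient cells of mIUT, 42.6 CPM in maternal cells of paternal-cell transplantation, 186 CPM in those of its DC-depleted group, 1024 CPM in recipient cells of uninjected pups, most of it Apoa4, and 6.24 CPM in uninjected maternal cells. Of 7 goblet cell genes, Tff3 had 312 against 39 counts and the other 6 were low in both libraries.

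Most hepatocyte genes compared were higher in mIUT too. Of 17 genes, 10 had 10 or more counts in both libraries, of which 8 were higher and 0 lower, 4 were over 100 in mIUT only and 1 (Serpina1a, 0 against 179 counts) in uninjected pups only. Apoa1, the main apolipoprotein of HDL, which the gut also makes, had 148054 against 231 counts (644-fold, 566 to 736). Hp, haptoglobin, which neutrophils also store, had 140830 against 17503 (8.09-fold, 7.96 to 8.21). Afp, the fetal albumin homologue, had 8016 against 430 (18.7-fold, 17.0 to 20.7), whereas Alb itself stayed within 4-fold (2478 against 762 counts, 3.27-fold). Trf, transferrin, differed by 1.01-fold (0.978 to 1.04), an interval that includes equality. The hepatocyte list summed to 8901 CPM in maternal cells of mIUT, 3824 CPM of it Apoa1, and to 704 CPM in uninjected maternal cells. In recipient cells the sums were 9156 CPM in mIUT and 14911.5 CPM in uninjected pups. Of 9 epithelial genes, 4 had 10 or more counts in both libraries and all 4 were higher, among them Epcam, the epithelial adhesion molecule (5925 against 456 counts, 13.1-fold, 11.9 to 14.4), and Krt8 (4835 against 253, 19.2-fold, 16.9 to 21.9). Cldn7, a claudin, had 6894 against 0 counts, while Krt19 went the other way (0 against 282).

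Of the imprinted genes of fetal growth that could be compared, 6 were higher and 1 lower in mIUT. Of 10 genes, 4 had 10 or more counts in both libraries and all 4 were higher, 2 were over 100 in mIUT only, 1 in uninjected pups only, and 3 (Meg3, Peg3 and Grb10) were low in both. Cdkn1c, a cyclin-dependent kinase inhibitor expressed from the maternal allele, had 27262 against 393 counts (69.7-fold, 63.1 to 77.2). H19, a noncoding RNA expressed from the maternal allele, had 8967 against 1500 (6.01-fold, 5.69 to 6.35), and Igf2, its paternally expressed neighbour and a fetal growth factor, 2053 against 69 (29.9-fold, 23.5 to 38.6). Mest, paternally expressed, had 3807 against 5 counts. Dlk1 was the lower gene, with 0 counts in mIUT and 210 in uninjected pups. The higher genes thus included maternally and paternally expressed ones. Transcripts encoded by mitochondrial DNA were higher in 9 of 12 genes and lower in 0, with a median log2 ratio of 2.57. Scaled by library size alone, 7 were higher. mt-Atp6 had 197896 against 24482 counts (8.12-fold, 8.02 to 8.23) and mt-Cytb 72261 against 10105 (7.19-fold, 7.04 to 7.34). Nuclear genes of the same respiratory complexes stayed within 4-fold in 37 of 37, with a median of 0.29, and so did 30 of 31 proteasome genes, with a median of -0.35 and Psmd13 as the exception (708 against 4733 counts).

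**Figure D3:**
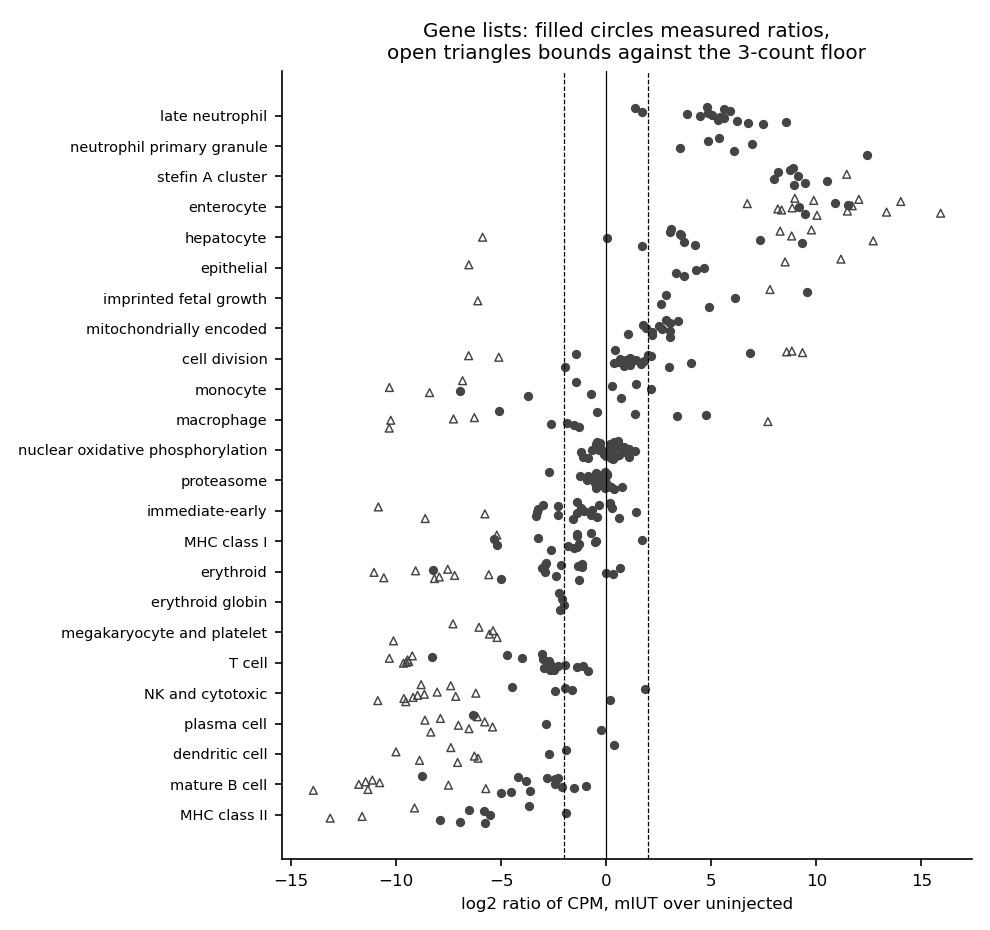
Log2 ratio of CPM, mIUT over uninjected (x axis), for each compared gene of 24 lists (rows), where filled circles are measured ratios, open triangles are bounds against the 3-count floor and dashed lines mark 4-fold. Neutrophil and enterocyte genes and most hepatocyte and epithelial genes lie to the right, mature B-cell, MHC class II and platelet genes and most NK and plasma cell genes to the left, and proteasome and nuclear oxidative phosphorylation genes around 0.

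Mature B-cell genes were lower in maternal cells of mIUT. Of 21 genes, 13 had 10 or more counts in both libraries, of which 11 were lower by 4-fold or more, against 12.6% of all such genes, and 0 higher, with a median log2 ratio of -2.84, and the other 8 were over 100 counts in uninjected pups only. Ighm, the IgM constant region on chromosome 12, had 13746 counts in mIUT and 252174 in uninjected pups, 18.3-fold lower (17.9 to 18.6). Cd79a and Cd79b, the signalling subunits of the B-cell receptor, had 4138 against 96352 (23.2-fold, 22.5 to 23.9) and 6948 against 87145 counts (12.5-fold, 12.2 to 12.8). Ighd, the IgD constant region that mature B cells splice from the same transcript as IgM, was lower still, with 91 against 40154 counts (439-fold, 358 to 545). Ms4a1, which encodes CD20 on chromosome 19 (11227039 to 11243605 in GRCm39), had 1 count against 47865, at least 15876-fold lower. Fcer2a, the low-affinity IgE receptor CD23 of follicular B cells, had 2 against 10664 counts. The 2 members within 4-fold were Ebf1 (593 against 1726 counts), a factor of early B-cell commitment, and Btk (844 against 1668), a kinase that myeloid cells also use. Other genes at the floor in mIUT were Fcmr, the Fc receptor for IgM (0 against 35506 counts), Cd38, an ectoenzyme of lymphocytes (0 against 9685), S1pr1, the receptor by which lymphocytes leave lymphoid organs (0 against 9642), Itgb7, an integrin of gut homing (1 against 28806), and Alox15, a lipoxygenase of resident peritoneal macrophages and eosinophils (1 against 16572). Ly6d, a marker of lymphoid commitment to B cells, had 210 against 60875 counts (288-fold lower, 252 to 332).

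MHC class II genes, which present antigen to CD4 T cells, were lower too. Of 11 genes, 8 had 10 or more counts in both libraries, of which 7 were lower and 0 higher, with a median log2 ratio of -5.81, and 3 were over 100 counts in uninjected pups only. The summed level was 540.1 CPM in mIUT and 41272 CPM in uninjected pups, a 76.4-fold difference. Cd74, the invariant chain, had 8739 against 823944 counts (93.8-fold, 91.9 to 95.8), H2-Ab1 and H2-Aa, the chains of I-A, 2702 against 335637 (124-fold, 119 to 128) and 2962 against 164587 (55.3-fold, 53.3 to 57.4). H2-Eb1, the beta chain of I-E, had 498 against 119780 counts (239-fold, 219 to 262). Ciita, the master regulator of the class II genes, had 0 against 1693 counts and H2-Ob, a chain of the peptide-loading modulator H2-O of B cells, 1 against 27427 (at least 9097-fold). Class I genes were less affected. Of 14 with 10 or more counts in both libraries, 4 were lower by 4-fold, 10 were within it, and the median was -1.38. B2m, the shared light chain of class I, had 54870 against 143158 counts (2.60-fold lower, 2.57 to 2.62), and H2-Q4 was the only member with a higher level in mIUT (1401 against 436).

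Most genes of antibody-secreting cells were at or near the floor in mIUT. Of 14 plasma cell genes, 8 were over 100 counts in uninjected pups only, 2 of 3 with 10 or more in both were lower, and 3 were low in both. Igkc had 2925 against 236139 counts (80.3-fold, 77.5 to 83.3), Jchain, the joining chain of polymeric IgA and IgM, 0 against 991, and Igha 0 against 1202. Genes of B-cell precursors were mixed. The 2 with 10 or more counts in both libraries, Vpreb3 and Cd93, were within 4-fold. Of the others compared, 3 were over 100 counts in mIUT only and 1 in uninjected pups only, and these had to pass the threshold. Such genes were 7.41% and 21.4% of all genes compared. Igll1, the lambda 5 chain of the pre-B-cell receptor, had 2480 counts in mIUT and 0 in uninjected pups (at least 831-fold higher), and Rag2, part of the recombinase, 244 against 0. Vpreb3 had 2218 against 2026 counts (1.10-fold higher, 1.04 to 1.17), and Sox4, a factor of early lymphoid cells that other progenitors share, 1865 against 2. Dntt, the terminal transferase that adds N nucleotides, was against them with 0 against 254 counts. Of this list of 10, 8 were matched, without Vpreb1 and Vpreb2, and Rag1 (13 against 0 counts) and Erg (0 in both) were below the limit for comparison.

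T-cell genes were lower in mIUT. Of 22 genes, 16 had 10 or more counts in both libraries, of which 12 were lower and 0 higher, with a median log2 ratio of -2.67, and the other 6 were over 100 in uninjected pups only. Cd3d had 7580 counts in mIUT and 14142 in uninjected pups (1.86-fold lower, 1.81 to 1.91), within the 4-fold limit, whereas its partner Cd3e had 2259 against 14519 (6.40-fold, 6.12 to 6.69). Lck, the kinase bound to CD4 and CD8, was 6.59-fold lower (2735 against 18112 counts, 6.33 to 6.86), and Cd2, an adhesion receptor of T and NK cells, 8.49-fold lower (2796 against 23868, 8.17 to 8.84). Trbc2, a TCR beta constant region, was 4.92-fold lower (4442 against 21975 counts, 4.77 to 5.08), with reads that can be shared with its near copy Trbc1. Lef1, a factor of naive T cells, had 20 against 6322 counts (315-fold lower, 203 to 515), and Gimap3, a GTPase of lymphocyte survival, 30 against 29333 (973-fold, 681 to 1442). Near the floor in mIUT were, among others, Cd5, Cd6, Zap70, Cd28 and Bcl11b, with 3 counts or fewer in mIUT and 1825 to 2443 in uninjected pups.

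Genes of T-cell activation and regulation were lower or within 4-fold, with 1 exception among those compared. Of 10 with 10 or more counts in both libraries, 8 were within 4-fold and 2 lower. Of the others, 5 (Cd69, Cd40lg, Ikzf2, Il4 and Tigit) were over 100 counts in uninjected pups only and 1 (Havcr2) in mIUT only. Foxp3, the factor of regulatory T cells, had 59 against 271 counts (4.57-fold lower, 3.44 to 6.16), and Tnfrsf18, a costimulatory receptor, 963 against 6278 (6.49-fold lower, 6.06 to 6.95). Il2ra, the alpha chain of the interleukin-2 receptor, had 605 against 220 counts (2.76-fold higher, 2.36 to 3.24) and Ifng 1147 against 695 (1.66-fold higher, 1.51 to 1.83). Pdcd1, which encodes the inhibitory receptor PD-1, had 847 against 825 counts (1.03-fold, 0.936 to 1.14), an interval that includes equality. Havcr2, the inhibitory receptor TIM-3 that myeloid cells also carry, had 493 against 0, and Cd69, an early activation marker, 0 against 7723 counts.

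Most NK-cell and cytotoxic genes had lower levels in mIUT. Of 17 genes, 6 had 10 or more counts in both libraries, of which 2 were lower by 4-fold, 0 higher and 4 within it, and 11 were over 100 counts in uninjected pups and under 10 in mIUT, among them Klrb1c, which encodes NK1.1 (0 against 5695 counts), and Ncr1, the NKp46 receptor (0 against 2256). Gzmb, granzyme B, had 25096 counts in mIUT and 7051 in uninjected pups (3.58-fold higher, 3.48 to 3.67), Gzma 6047 against 19016 (3.13-fold lower, 3.04 to 3.22) and Prf1, perforin, 1736 against 9492 (5.44-fold lower, 5.17 to 5.73). Nkg7, a granule membrane protein, was 3.91-fold lower (4636 against 18219 counts, 3.79 to 4.04) and Ccl5, a chemokine of cytotoxic cells, 22.6-fold lower (539 against 12217, 20.7 to 24.6). Klrk1, the activating receptor NKG2D that CD8 T cells also carry, had 2326 against 2100 counts (1.11-fold higher, 1.05 to 1.18). The 5 neighbours of Gzmb on chromosome 14, Gzmc, Gzmd, Gzme, Gzmf and Gzmg, were at 0 in mIUT and at 1156 to 5226 counts in uninjected pups.

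**Figure D4:**
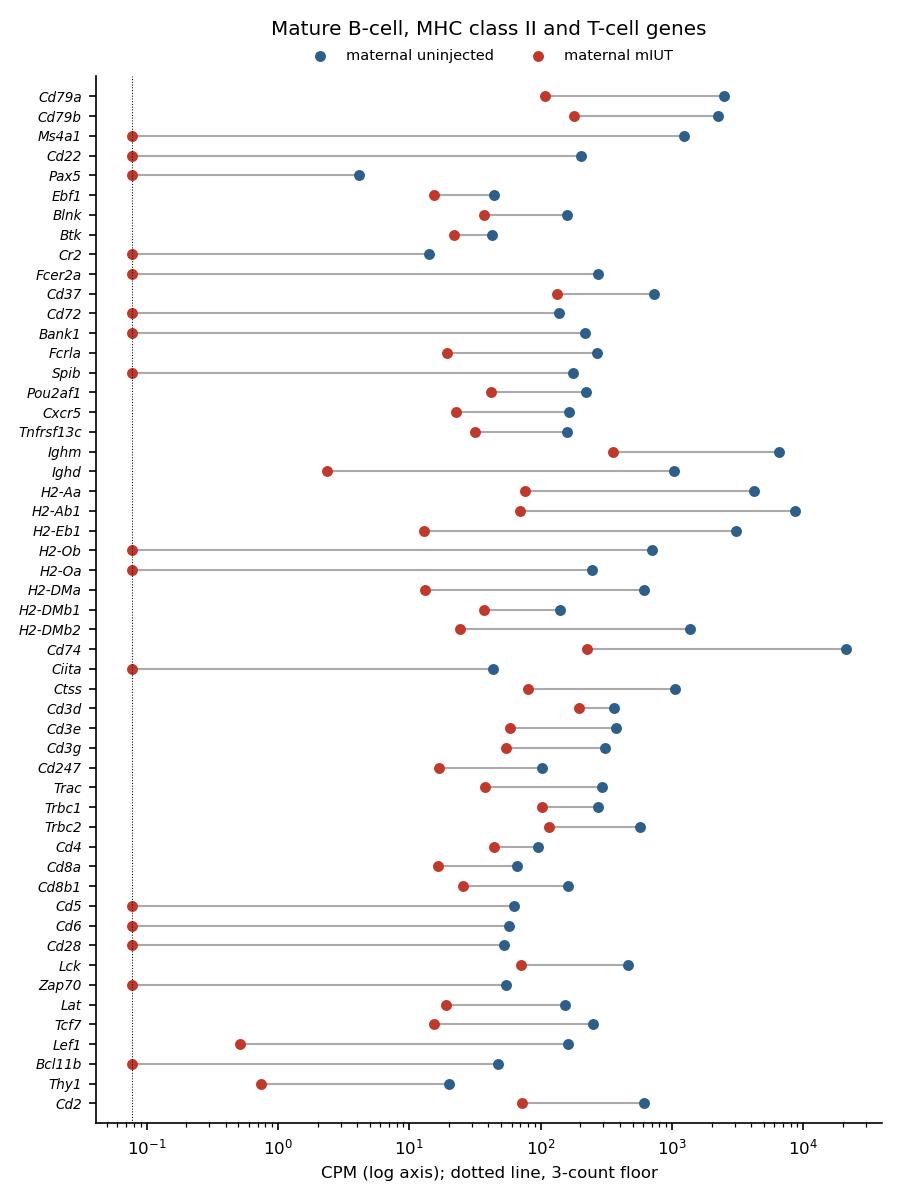
CPM (x axis, log scale) of mature B-cell genes (Cd79a to Ighd), MHC class II genes (H2-Aa to Ctss) and T-cell genes (Cd3d to Cd2) in the 2 maternal libraries, with the 3-count floor as a dotted line. The mIUT value lies to the left of the uninjected value for every gene shown, and for some genes of each list it lies at the floor.

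Most dendritic cell genes were near 0 in mIUT. Of 11 genes, 6 were over 100 counts in uninjected pups and under 10 in mIUT, and of 3 with 10 or more in both 1 was lower by 4-fold. Itgax, which encodes CD11c, had 0 against 409 counts, Flt3, a growth factor receptor of dendritic cell precursors, 0 against 1437, and Cd209a, a lectin of monocyte-derived dendritic cells, 0 against 3127. Irf8, a factor of dendritic cells that B cells and monocytes share, had 2487 against 16357 counts (6.54-fold lower, 6.27 to 6.83), and Ccr9, a gut-homing receptor of plasmacytoid dendritic cells and T cells, was not lower (1053 against 810, 1.31-fold higher, 1.19 to 1.43). Monocyte genes were mixed. Of 11, 7 had 10 or more counts in both libraries, of which 1 was higher, 1 lower and 5 within 4-fold, and 4 (Cx3cr1, Ms4a6c, Fcgr1 and Vcan) were over 100 in uninjected pups only. The higher gene was Fcgr4, an IgG receptor that neutrophils also carry (4445 against 1009 counts, 4.43-fold, 4.13 to 4.75), which was within 4-fold when scaled by library size alone. Lyz2, lysozyme, had 646312 against 540820 counts (1.20-fold higher, 1.20 to 1.21) and Ly6c2 20781 against 12875 (1.62-fold higher, 1.59 to 1.66), while Ccr2, the chemokine receptor of inflammatory monocytes, had 516 against 6937 (13.4-fold lower, 12.2 to 14.7). Of 18 macrophage genes, 8 had 10 or more counts in both libraries, of which 2 were higher and 1 lower, 1 (Mertk) was over 100 in mIUT only and 5 (Adgre1, Cd5l, Vsig4, Timd4 and Maf) in uninjected pups only. Adgre1, which encodes F4/80, had 0 against 3908 counts, and C1qb, a chain of complement C1q, 1816 against 11269 (6.17-fold lower, 5.88 to 6.49). In contrast, the genes of iron handling Slc40a1, ferroportin (23413 against 864, 27.2-fold, 25.4 to 29.2), and Hmox1, heme oxygenase 1 (8468 against 825, 10.3-fold, 9.60 to 11.1), were higher in mIUT. Irf5, a factor of myeloid and B cells, had 34 against 6760 counts, Nfkb2 14 against 3068 and Mcoln2, a lysosomal channel of lymphoid and myeloid cells, 12 against 3582.

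Red cell genes had lower levels in mIUT, and most platelet and mast cell genes compared were near 0 there. Of 14 erythroid genes with 10 or more counts in both libraries, 7 were lower and 0 higher, with a median log2 ratio of -1.75, and 9 more were over 100 in uninjected pups only. The 4 adult globin genes were each lower, of which Hba-a2 (4.04-fold) was within 4-fold under DESeq2 size factors, with Hbb-bs at 273152 against 1197074 counts (4.36-fold, 4.34 to 4.38) and Hba-a1 at 248292 against 1144189 (4.59-fold, 4.57 to 4.61), and reads of the near-identical alpha and beta copies can be shared. Car2, carbonic anhydrase 2, had 3245 against 27681 counts (8.49-fold, 8.18 to 8.80), Alas2, the first enzyme of heme synthesis in red cells, 5857 against 14556 (2.47-fold, 2.40 to 2.55), and Klf1, the erythroid master factor, 0 against 4673. Bpgm (3605 against 2278 counts) and Epb42 (1293 against 1057) had more counts in mIUT. None of the 12 megakaryocyte and platelet genes had 10 counts in both libraries. All had 2 counts or fewer in mIUT, 6 were over 100 in uninjected pups, and Pf4, platelet factor 4, had 3394 in uninjected pups. Of 17 mast cell, basophil and eosinophil genes, 9 were over 100 counts in uninjected pups only, including the mast cell proteases Tpsb2 (4525) and Cpa3 (3246), and 1, Ear1, in mIUT only (168 against 0). The 2 genes with 10 or more counts in both libraries were within 4-fold and had higher levels in mIUT. They were Hdc, histidine decarboxylase, which neutrophils also make (11768 against 3064 counts, 3.86-fold, 3.71 to 4.02), and Ear2, a ribonuclease of eosinophils and other myeloid cells (1055 against 667, 1.59-fold, 1.44 to 1.75).

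The TCR and BCR repertoire of the mIUT library was far smaller. MiXCR, which assembles CDR3 sequences from the reads, listed 49 clonotypes with 8376 reads in mIUT and 4429 clonotypes with 348684 reads in uninjected pups. When the uninjected library is thinned to 8376 reads, 1994 clonotypes are expected (rarefaction). The Hill number of order 1, the effective number of clonotypes weighted by clone count, was 28.8 in mIUT and 941 in uninjected pups. BCR chains held 54.6% of reads in mIUT and 93.3% in uninjected pups. By chain, IGK held 32.8% of reads (31.8 to 33.8%) in mIUT and 71.2% of reads (71.0 to 71.3%) in uninjected pups, and TRB 38.9% of reads (37.9 to 39.9%) and 4.47% of reads (4.41 to 4.54%). IGH held 16.0% of reads (15.2 to 16.8%) and 13.8% of reads (13.72 to 13.95%). A higher share did not mean more reads, since TRB had 3258 reads in mIUT and 15600 in uninjected pups, and IGK 2744 and 248241. The shares also depend on what is counted. As shares of clonotypes, IGK held 26.5% in mIUT and 30.7% in uninjected pups, IGH 24.5% and 47.9%, and TRB 28.6% and 12.1%. Over reads of productive clonotypes, IGK held 19.7% and 72.6%. TRD, the delta chain, had 0 of 8376 reads in mIUT, which allows a share of up to 0.0358%, and 0.0740% in uninjected pups. All 12 IGH clonotypes of mIUT were IgM, while in uninjected pups 83.3% of IGH reads were IgM, 15.2% IgD and 0.682% IgA.

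Clone counts in mIUT fell into 2 ranges with a gap between them. Of 49 clonotypes, 31 had 124 to 847 reads and held 98.9% of all receptor reads, and the other 18 had 21 or fewer. In uninjected pups 10.9% of clonotypes reached 100 reads and the median clonotype had 26. Of the 18 small clonotypes of mIUT, 8 had the same CDR3 bases as a larger clonotype of their chain, 8 lay 1 base from a larger one (edit distance) and 1 lay 2 bases away. The last, a TRG clonotype, had no larger one in its chain, and the 6 TRG clonotypes had 31 reads in all. The large clonotypes were 12 TRB, 9 IGK, 7 IGH, 2 TRA and 1 IGL, and 2 of them, both TRBV19 with TRBJ2-5 and with 266 and 194 reads, differed by 1 base. The clone counts of the large clonotypes thus spanned a 6.83-fold range.

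**Figure D5:**
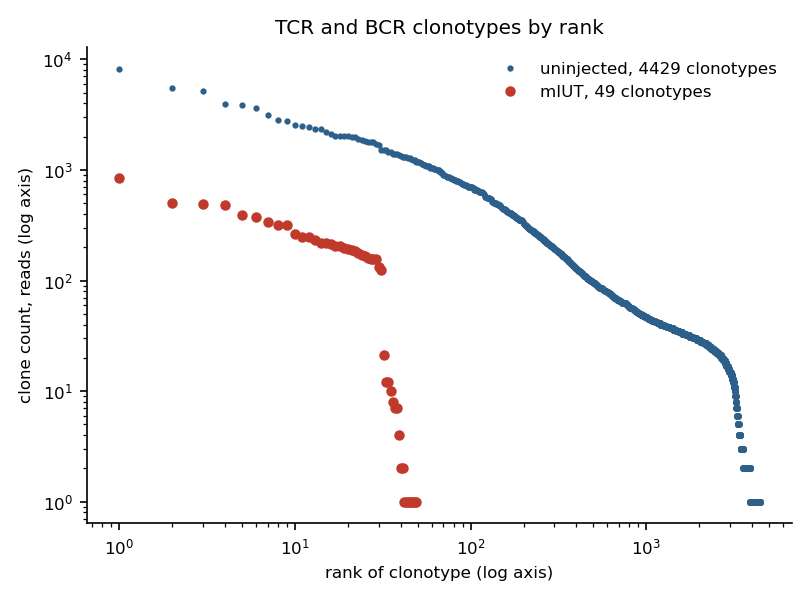
Clone count in reads (y axis, log scale) of each TCR or BCR clonotype against its rank in its library (x axis, log scale). The 31 leading clonotypes of mIUT lie between 124 and 847 reads and are followed by a drop to 21 reads or fewer, whereas clone counts of the uninjected library run on from 8235 to 1 without such a gap.

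The CDR3 sequences of the 4 largest clonotypes of each library are printed because they carry the most reads, in lower case with the first codon and the last 3 bases in capitals. Each is given 5′ to 3′ on the coding strand, with its clone count.
mIUT, IGKV8-21 and IGKJ2, 847 reads: TGCaagcaatcttataatcttccacgTTC
mIUT, TRBV13-1 and TRBJ2-5, 498 reads: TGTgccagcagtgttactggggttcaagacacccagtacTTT
mIUT, IGLV1 and IGLJ1, 489 reads: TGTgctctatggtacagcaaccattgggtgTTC
mIUT, TRBV13-1 and TRBJ1-3, 481 reads: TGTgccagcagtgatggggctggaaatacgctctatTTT
uninjected, IGKV1-117 and IGKJ2, 8235 reads: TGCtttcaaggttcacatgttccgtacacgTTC
uninjected, IGKV6-15 and IGKJ2, 5539 reads: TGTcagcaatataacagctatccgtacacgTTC
uninjected, IGLV2 and IGLJ2, 5167 reads: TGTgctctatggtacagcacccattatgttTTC
uninjected, IGLV1 and IGLJ1, 3962 reads: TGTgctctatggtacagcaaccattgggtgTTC
The largest clonotype of mIUT, with 10.1% of reads (9.48 to 10.8%), has 29 bases and is out of frame, so that it encodes no receptor chain. Its V segment IGKV8-21 lies on chromosome 6 at 70291879 to 70292456 and its J segment IGKJ2 at 70699900 to 70699942 in GRCm39. The IGLV1 CDR3 was the same in both libraries. TRBV13-1 was the V segment of 2 of the 4 largest clonotypes of mIUT, and TRBV19 that of 4 of its 12 large TRB clonotypes. Clonotypes with a stop codon or frameshift made up 24.5% of clonotypes in mIUT (Wilson interval 14.6 to 38.1%) and 13.03% in uninjected pups (12.07 to 14.05%), and 21.3% and 4.98% of reads. By reads, IGK held most of this in mIUT, with 1449 of 1788 nonproductive reads.

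The 2 libraries shared 7 CDR3 sequences, counted as the same chain and the same bases, or 17.1% of the 41 distinct CDR3s in mIUT and 0.191% of the 3659 in uninjected pups. All 7 were light chains and all were among the large clonotypes of mIUT. The 6 kappa chains are printed to show how alike they are in length, with their reads in mIUT and then in uninjected pups.
IGKV4-70 and IGKJ5, 337 and 362 reads: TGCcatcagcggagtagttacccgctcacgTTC
IGKV8-16 and IGKJ4, 320 and 65 reads: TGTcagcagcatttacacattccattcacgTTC
IGKV8-19 and IGKJ4, 319 and 735 reads: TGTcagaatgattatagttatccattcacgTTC
IGKV1-135 and IGKJ1, 217 and 121 reads: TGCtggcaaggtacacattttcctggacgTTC
IGKV1-122 and IGKJ2, 157 and 76 reads: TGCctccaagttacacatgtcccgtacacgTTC
IGKV1-117 and IGKJ1, 155 and 245 reads: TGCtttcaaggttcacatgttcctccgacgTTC
The seventh was the IGLV1 sequence above, with 497 reads in mIUT over its 2 lines and 3962 in uninjected pups. Of these 7, the IGKV1-135 sequence of 32 bases is out of frame and the others have 33 bases. With recipient cells of DC-depleted paternal-cell transplantation, maternal cells of mIUT also shared 7 CDR3s. They shared 4 with recipient cells of paternal-cell transplantation, 3 with recipient cells of mIUT and with maternal cells of the DC-depleted group, 1 with recipient cells of uninjected pups and 0 with maternal cells of paternal-cell transplantation, which held 27. No heavy chain or TCR sequence was found in both maternal libraries. Light chains carry few N nucleotides, so that the same CDR3 can arise in unrelated cells.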

How the data were processed

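RNA of sorted cells from pooled pups was sequenced, 1 library per group, and 2 of the 8 libraries were compared. The authors deposited estimated counts per gene from salmon (GRCm39, GENCODE annotation), which are not all whole, and per sample the clone counts and clone fraction of TCR and BCR clonotypes from MiXCR, whose version is not given in the sources used here. The submitters' processing notes also name bcl2fastq and StringTie. Estimated counts were scaled by TMM factors over all 8 libraries (edgeR 4.0.16), with log2 ratios of CPM and a floor of 3 counts. Library totals were 44558283 and 38558603 counts. Intervals are exact binomial on the pair of counts, or Wilson intervals for shares. With 1 library a side no test was run, and called means a difference of 4-fold or more.

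The 41 gene lists and the members were chosen with earlier results of these data known, and the enterocyte, goblet cell and stefin A lists were written after values were seen. Named genes were the 8 with the largest and smallest ratios among genes with 10 or more counts in both libraries and 10 CPM in the higher one, the 8 with the highest CPM in each direction among genes at the floor in the other library, the leading members of each list and members against their list. The steps were tested on simulated data. Alternatives were DESeq2 size factors (1.42.0), library size alone, TMM over 2 libraries, other thresholds, and productive clonotypes only. Clone fraction was recomputed from the clone counts and was the same as deposited. Values of some list members are not reported here.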

Additional observations from a re-analysis of the deposited data

Results flagged for a closer look

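Hepatocyte and mitochondrially encoded lists had medians past 4-fold in opposite directions in the 2 sorts. The hepatocyte list had a median log2 ratio of mIUT over uninjected of 3.55 in maternal cells, over 10 genes with 10 or more counts in both libraries, and of -4.50 in recipient cells, over 7 such genes, which are not all the same genes. Hp went against the recipient median, with 8947 CPM in recipient cells of mIUT and 555 CPM in those of uninjected pups. The mitochondrially encoded genes had a median log2 ratio of 2.57 in maternal cells and of -5.17 in recipient cells, over 12 genes in each. Lists with fewer genes or a smaller median in 1 sort also changed sign, among others with maternal and recipient medians of 3.99 and -7.52 for epithelial, 10.17 and -2.19 for enterocyte, 3.88 and -2.97 for imprinted and 5.36 and -1.18 for primary granule genes. With 1 library in each of the 4 groups the difference between maternal and recipient cells was not tested.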

How the results depend on the processing

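Over all alternatives, 23 values of the main comparisons stayed within their limits and 7 moved, and of the values for single lists and chains 167 stayed and 25 moved. Restricting the comparison to genes with 10 counts in both libraries gave 1334 higher and 1097 lower genes, since fewer genes were compared, and a 2-fold threshold gave 3518 higher genes. The Hill number of uninjected pups was 305 at order 2. The BCR share was 47.5% in mIUT and 93.4% in uninjected pups over productive clonotypes, and 80.9% in uninjected pups as a share of clonotypes. Scaling by library size alone shifted all log2 ratios by -0.22, which turned the median of the DNA replication genes from 0.19 to -0.03 and left 0 monocyte genes higher in place of 1. DESeq2 size factors turned the B-cell precursor median from -0.04 to 0.0016. Leaving out a replicate could not be done with 1 library a side. No paired analysis was possible because each group has 1 library.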

Other observations

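Interferon-stimulated genes were mixed, with 6 higher, 2 lower and 8 within 4-fold among the 16 with 10 or more counts in both libraries, 3 over 100 counts in mIUT only and 1 in uninjected pups only. Ifit1, an interferon-induced inhibitor of translation, had 3535 counts in mIUT and 0 in uninjected pups, whereas Rsad2, which encodes viperin, had 293 against 2479. Cell division genes had 4 higher, 0 lower and 14 within 4-fold of 18 with 10 or more counts in both libraries, 3 over 100 in mIUT only and 2 in uninjected pups only. Mki67, the proliferation antigen, had 442 against 57 counts while Top2a, topoisomerase 2 alpha, had 133 against 531. Of 11 Toll-like receptor genes with 10 or more counts in both, 2 were higher, Tlr13 (10937 against 877 counts), a sensor of bacterial ribosomal RNA, and Tlr6 (1763 against 268), and 2 more, Tlr9 and Ticam1, were over 100 counts in uninjected pups only.

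Heat shock genes had 5 lower and 8 within 4-fold of 13 with 10 or more counts in both libraries, and 1 more, Trib3, was over 100 in uninjected pups only. Hspa1b, an inducible HSP70, had 1023 counts in mIUT and 138294 in uninjected pups, and Hspa1a had 4480 against 94071, and reads of these near-identical copies can be shared. Of 20 immediate-early genes with 10 or more counts in both, 6 were lower and 0 higher, among them Junb with 11227 against 114812 counts, and 3 more were over 100 in uninjected pups only. Over all genes compared, with those high in 1 library only included, 18.3% were higher and 30.4% lower. Of 23 chemokine genes and receptors compared, 3 were higher and 13 lower, 8 of the latter over 100 counts in uninjected pups only, which had to pass. Of 22 interleukin genes and receptors compared, 4 were higher and 10 lower, with 1 of the former over 100 in mIUT only and 5 of the latter in uninjected pups only. Il1r2, a decoy receptor for interleukin-1 that neutrophils carry, had 26401 against 574 counts, and Il2rg, the shared gamma chain of lymphocyte cytokine receptors, 683 against 34524. Of 12 stem and progenitor genes compared, 3 were higher and 7 lower, 1 of the former over 100 counts in mIUT only and 5 of the latter (Kit, Gata2, Gfi1b, Tal1 and Slamf1) in uninjected pups only, and the 6 with 10 or more counts in both libraries had 2 higher, 2 lower and a median log2 ratio of -0.12, with Cd34 at 1973 against 117 counts and Ly6a, which encodes Sca-1 and which lymphocytes also carry, at 288 against 24436. All 4 skeletal muscle genes with 10 or more counts in both libraries were lower, Acta1 with 15 against 1857 counts, and Tnni2 (4.04-fold) was within 4-fold under DESeq2 size factors. Of 6 endothelial genes compared, 4 were higher, 3 of them (Kdr, Egfl7 and Stab2) over 100 counts in mIUT only, and 1 was lower, and the 3 with 10 or more counts in both libraries had 1 higher, 1 lower and a median log2 ratio of -0.34. Of 4 mesenchymal genes compared, 3 were within 4-fold and Col1a1 was over 100 in uninjected pups only (0 against 175 counts).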
